A study of Mus musculus with 2 samples.

Results

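The 10 genes described here belong to the BCL2 family, which sets the threshold for apoptosis at the mitochondrion. They were chosen by name, not by their values, out of 32285 genes counted: the pro-survival genes Bcl2, Bcl2l1 (BCL-XL), Mcl1 and Bcl2a1a, Bcl2a1b and Bcl2a1d (the A1 genes), the BH3-only genes Bcl2l11 (BIM) and Bid, and the effector genes Bax and Bak1. All 10 were found in the count matrices. Single-cell RNA was counted in LSK cells, a sorted marrow population of mice that lacks lineage markers, carries Sca-1 and much KIT, and includes stem cells and multipotent progenitors. The donors were young mice, either wild type (WT) or lacking IκB, the latter named IkBKO in the deposited cell table. The sources used here do not give which IκB alleles IkBKO mice carry, how many mice were pooled, or their age in weeks. Cells of both genotypes were tagged with antibodies and run together in 1 droplet library per replicate, so 2 libraries gave 4 pools.

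In the intrinsic pathway of apoptosis, BAX and BAK1 open pores in the outer mitochondrial membrane. The pro-survival proteins hold them and the BH3-only proteins in check, and BH3-only proteins such as BIM and BID tip the balance towards death. In blood formation, MCL1 is needed for the survival of stem cells, BCL2 for that of lymphocytes and BCL-XL for that of platelets and maturing red cells. The A1 genes, of which the mouse carries several copies, are known NF-κB targets in lymphocytes and myeloid cells, and IκB proteins hold NF-κB inactive.

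The pools held 3721 WT and 3962 IkBKO cells in replicate 1 and 4963 WT and 5383 IkBKO cells in replicate 2. Their totals ranged from 42165571 to 62834572 UMIs (distinct RNA molecules). A WT cell had a median of 9963 UMIs in replicate 1 and 6983 in replicate 2, and an IkBKO cell 13709 and 9641, so IkBKO cells held more UMIs in both libraries. The libraries shared 39 cell barcodes. Nfkbie, which encodes IκBε, stood at 9.11 and 12.1 CPM in WT and at 2.04 and 1.97 CPM in IkBKO pools of replicates 1 and 2 (−2.30 on the log2 scale, edgeR adjusted p = 0.0028). Nfkbib, which encodes IκBβ, was lower too (−1.19, edgeR adjusted p = 0.0073), whereas Nfkbia, which encodes IκBα, stood at 47.7 and 76.0 CPM in WT and at 42.6 and 59.7 CPM in IkBKO pools and was not called (−0.17, edgeR adjusted p = 0.25). Since the sources used here do not state which parts are deleted, a 3′ tag may lie outside them. Markers of other lineages were not equal between the genotypes: the summed level of 6 mature neutrophil markers was 1344 and 1160 CPM in the WT pools against 167 and 201 CPM in IkBKO pools.

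The A1 genes carry the largest differences described below, so their start regions are shown first. They lie on chromosome 9 of GRCm38 (mm10), Bcl2a1a at 88956900 to 88962419 on the plus strand, Bcl2a1b at 89199209 to 89207827 on the plus strand and Bcl2a1d at 88723285 to 88731914 on the minus strand. Each line gives the RefSeq window (GRCm38.p6) of 300 bases from 250 before to 50 after the annotated start, 5′ to 3′ on the gene's strand. The windows are chr9:88956670-88956969 (plus), chr9:89199023-89199322 (plus) and chr9:88731801-88732100 (minus). Capitals mark matches to GGGNNNNNCC on either strand, a loose form of the κB motif.
Bcl2a1a: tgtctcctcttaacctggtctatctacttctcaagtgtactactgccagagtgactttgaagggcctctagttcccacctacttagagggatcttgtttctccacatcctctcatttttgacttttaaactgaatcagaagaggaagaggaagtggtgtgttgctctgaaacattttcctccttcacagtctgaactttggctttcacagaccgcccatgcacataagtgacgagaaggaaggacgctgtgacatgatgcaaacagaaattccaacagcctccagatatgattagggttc
Bcl2a1b: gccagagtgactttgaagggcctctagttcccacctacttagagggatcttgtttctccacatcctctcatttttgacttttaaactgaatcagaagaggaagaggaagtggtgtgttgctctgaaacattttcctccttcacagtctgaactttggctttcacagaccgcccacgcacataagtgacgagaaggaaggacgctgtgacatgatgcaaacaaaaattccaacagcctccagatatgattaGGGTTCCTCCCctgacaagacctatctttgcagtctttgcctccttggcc
Bcl2a1d: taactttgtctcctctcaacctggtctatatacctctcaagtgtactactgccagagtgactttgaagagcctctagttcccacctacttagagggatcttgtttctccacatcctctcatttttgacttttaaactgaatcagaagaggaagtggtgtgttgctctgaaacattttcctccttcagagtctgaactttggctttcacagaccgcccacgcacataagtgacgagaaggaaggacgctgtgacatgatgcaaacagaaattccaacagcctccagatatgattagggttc

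Where the windows of Bcl2a1a and Bcl2a1b overlap in alignment, 254 of 256 positions were identical (99.2%). Bcl2a1a and Bcl2a1d were identical at 288 of 300 positions (96.0%), and Bcl2a1b and Bcl2a1d at 247 of 256 (96.5%). The Bcl2a1b window held 2 overlapping matches, GGGTTCCTCC on the plus strand from position 1 after the start and GGTTCCTCCC on the minus strand 1 base further on. The windows of Bcl2a1a and Bcl2a1d held 0 matches and ended in the bases GGGTTC, within the stretch that matches in Bcl2a1b. The motif was found in 16686 of 32851 RefSeq promoter windows of this length (50.8%), so a match is common. The A1 transcripts are alike at their 3′ ends too, where the reads lie. Of all 90-base stretches in the last 300 bases, 39.8% of those of Bcl2a1a, 50.2% of Bcl2a1b and 89.6% of Bcl2a1d also occur in another A1 gene. The counts of each A1 gene and the split between them are therefore uncertain, and their summed UMIs are given as well. If reads that fit more than 1 A1 gene were not counted, the sum is too low too, by an unequal part of each gene.

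Over all LSK cells, the A1 genes and Bak1 were higher in IkBKO than in WT pools, and none of the 10 genes was called lower. In edgeR's quasi-likelihood test with the replicate as a block, 4 of 10 members were called higher at an adjusted p of at most 0.05, against 7.13% of the 14742 genes tested called higher and 6.19% lower. Of these 4, 3 are A1 genes, whose reads can fit more than 1 of them, so their calls are not separate. The median log2 difference was 0.31 over the members and −0.01 over all genes tested. Differences are log2 ratios of IkBKO to WT. The value after ± (SE) is an approximate standard error, the difference divided by the square root of edgeR's F statistic. It can be too small where counts are low. Levels are UMIs of a gene per 1000000 UMIs of the pool (CPM), and values are given for replicate 1 and then replicate 2.

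Among the A1 genes, Bcl2a1b stood at 1.63 and 1.07 CPM in WT pools (71 and 45 UMIs) and at 8.07 and 10.4 CPM in IkBKO pools (507 and 638 UMIs). Bcl2a1d stood at 0.664 and 0.617 CPM in WT and at 4.25 and 4.60 CPM in IkBKO pools. Bcl2a1a was sparse, with 6 and 10 UMIs in WT and 64 and 80 UMIs in IkBKO pools. Its WT pools alone would not have passed the expression filter, so it entered the test through its IkBKO pools. With no filter it was called as well (2.74, edgeR adjusted p = 1.5e-04). For each of these genes both IkBKO pools lay above both WT pools. The differences were 2.87 ± 0.25 for Bcl2a1b (edgeR adjusted p = 0.0043), 2.87 ± 0.23 for Bcl2a1d (edgeR adjusted p = 0.0028) and 2.72 ± 0.37 for Bcl2a1a (edgeR adjusted p = 0.012). Without the replicate block edgeR called 0 of the 14742 genes (1410 had an unadjusted p under 0.05), and the values of the A1 genes lay between 2.71 and 2.87 (edgeR adjusted p = 0.21, 0.12 and 0.095 for Bcl2a1a, Bcl2a1b and Bcl2a1d).

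The other pro-survival genes did not pass the test. Bcl2, the founding member, stood at 93.1 and 73.0 CPM in WT and at 58.3 and 67.6 CPM in IkBKO pools. The IkBKO pools were below the WT pools, but the difference rested mainly on replicate 1 (−0.54 in replicate 1 alone, −0.06 in replicate 2 alone; both together −0.30 ± 0.13, edgeR adjusted p = 0.18). Mcl1, whose short-lived protein guards early blood cells, stood at 103.6 and 124.8 CPM in WT and at 89.6 and 118.6 CPM in IkBKO pools. Its groups overlapped, and its difference of −0.05 ± 0.08 was smaller than its SE (edgeR adjusted p = 0.69). Bcl2l1 stood at 7.99 and 9.23 CPM in WT and at 7.10 and 9.22 CPM in IkBKO pools, again with overlap (0.01 ± 0.12, edgeR adjusted p = 0.98).

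Of the effectors, Bak1 rose and Bax missed the threshold narrowly. Bak1 stood at 35.0 and 27.3 CPM in WT and at 53.4 and 33.4 CPM in IkBKO pools. It was higher in IkBKO within both replicates although the groups overlapped, and the difference was 0.54 ± 0.11 (edgeR adjusted p = 0.035; 0.74 and 0.34 in the replicates alone). Bax stood at 100.3 and 93.1 CPM in WT and at 126.2 and 106.5 CPM in IkBKO pools, which did not overlap (0.35 ± 0.09, edgeR adjusted p = 0.052). With DESeq2 in place of edgeR, Bax was called (0.37, DESeq2 adjusted p = 0.022).

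The BH3-only genes were not called. Bcl2l11 stood at 13.3 and 15.3 CPM in WT and at 11.0 CPM in both IkBKO pools, which lay below both WT pools (−0.28 ± 0.11, edgeR adjusted p = 0.14). Bid, which caspase-8 cleaves to link death receptors to the mitochondrion, stood at 25.2 and 22.8 CPM in WT and at 35.2 and 20.8 CPM in IkBKO pools. It was higher in IkBKO in replicate 1 (0.61) and close to WT in replicate 2 (−0.08). The plot of levels over all LSK cells shows the 4 pools of each gene.

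**Figure D1:**
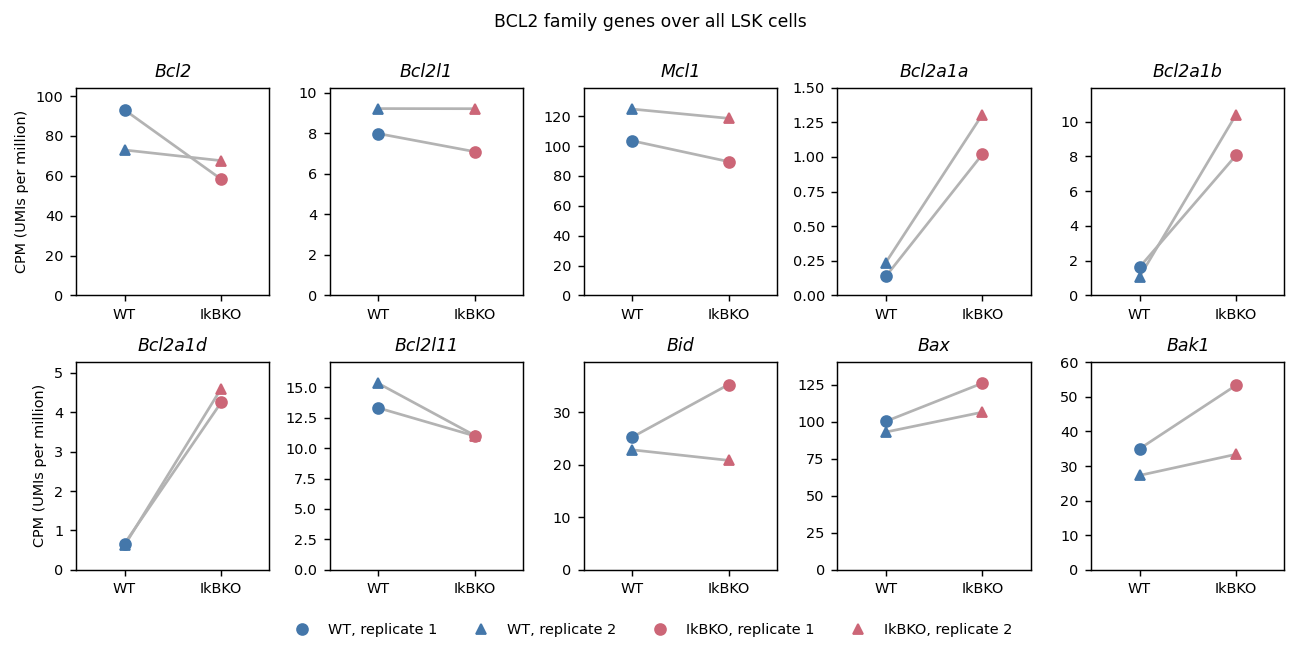
Level of each of the 10 genes over all LSK cells, in UMIs per 1000000 UMIs of the pool (CPM, linear axis from 0). Each point is 1 pool (circles replicate 1, triangles replicate 2), and grey lines join the pools of 1 library. The A1 genes lie higher in both IkBKO pools; Bcl2a1b goes from 1.63 to 8.07 CPM in replicate 1 and from 1.07 to 10.4 CPM in replicate 2.

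To see in which cells the genes differed, cells were gated by 1 transcript each, none of them a member: Mecom (a stem cell transcription factor, at least 1 UMI), Dntt (lymphoid priming, at least 3), Mpo (myeloid priming, at least 20), Pf4 (megakaryocyte priming, at least 3), Car1 (erythroid priming, at least 5) and Cd74 (antigen presentation, at least 20). A cell may fall in more than 1 gate. The gates differed in size between the genotypes. The Cd74 gate took 1.37% and 0.826% of WT cells (51 and 41 cells) and 5.07% and 6.71% of IkBKO cells (201 and 361 cells). Cd74 itself stood at 113 and 116 CPM in WT and at 420 and 698 CPM in IkBKO pools over all LSK cells. It was seen in 13.9% and 18.6% of WT and 46.6% and 43.5% of IkBKO cells. Outside the gate, 10 antigen presenting or dendritic markers summed to 209 and 181 CPM in WT and to 527 and 459 CPM in IkBKO cells. The gate therefore need not hold the same kinds of cells in both genotypes. The Mpo gate took 9.11% and 0.806% of WT and 37.2% and 9.47% of IkBKO cells, and the Dntt gate 20.1% and 19.4% of WT and 6.66% and 9.79% of IkBKO cells.

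Most A1 UMIs of IkBKO mice came from the few cells of the Cd74 gate. Summed over the 3 A1 genes, WT pools held 106 and 81 UMIs, of which 34 and 40 (32.1% and 49.4%) lay in the Cd74 gate. IkBKO pools held 838 and 1000 UMIs, of which 742 and 907 (88.5% and 90.7%) lay there. Outside the gate the summed A1 level was 1.67 and 0.986 CPM in the WT pools against 1.57 and 1.60 CPM in IkBKO pools, so the groups overlapped. Without the cells of the Cd74 gate, none of the A1 genes was called over all LSK cells: Bcl2a1b was at 0.15 ± 0.32 (edgeR adjusted p = 0.79) and Bcl2a1d at 0.86 ± 0.43 (edgeR adjusted p = 0.21). Bcl2a1a then had too few UMIs to be tested.

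Within the Cd74 gate the A1 genes were higher in IkBKO cells as well, and 2 of them were called. Bcl2a1b stood at 22.0 and 23.4 CPM in WT (13 and 14 UMIs) and at 243.9 and 181.4 CPM in IkBKO cells (442 and 578 UMIs), 3.23 ± 0.23 higher on the log2 scale (edgeR adjusted p = 2.7e-05). Bcl2a1d stood at 30.5 and 28.4 CPM in WT and at 135.2 and 80.4 CPM in IkBKO cells (1.86 ± 0.25, edgeR adjusted p = 0.0012). DESeq2 gave larger standard errors, 0.46 for Bcl2a1b and 0.51 for Bcl2a1d, and called both genes. Bcl2a1a, at 5.08 and 15.0 CPM in WT, and at 30.4 and 22.9 CPM in IkBKO cells, was not called (1.39 ± 0.45, edgeR adjusted p = 0.11). For all 3 genes both IkBKO pools lay above both WT pools. Of the 9 members tested in this gate, 2 were called higher and 0 lower, against 3.41% of the 8986 genes tested called higher; Bcl2l1 had too few UMIs.

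A1 transcripts were also found in a larger share of Cd74-gate cells. At least 1 A1 UMI was seen in 21.6% (11 of 51, 95% Wilson interval 12.5% to 34.6%) and 22.0% (9 of 41, 12.0% to 36.7%) of WT cells. In IkBKO cells the shares were 58.7% (118 of 201, 51.8% to 65.3%) and 52.1% (188 of 361, 46.9% to 57.2%). With each cell thinned to 5000 UMIs, which left out 8 and 7 WT and 17 and 87 IkBKO cells, the shares were 9.30% and 17.6% in WT and 52.2% and 45.3% in IkBKO cells. In the Pf4 gate, a megakaryocyte-primed group that served as background, the unthinned share was between 0.379% and 1.37% in the 4 pools. This background held some Cd74-gate cells. In IkBKO replicate 2, 8 such cells held 27 Bcl2a1b and 12 Bcl2a1d UMIs, and the other 578 cells held 0 and 3. Median depth before thinning, in the cells kept, was 9995 and 12829.5 UMIs in WT and 8027.5 and 8096.5 UMIs in IkBKO cells of the Cd74 gate, and between 9390 and 12654 UMIs in the Pf4 gate. The intervals cover counting error only, since cells of 1 pool are not replicates.

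Much of the A1 RNA sat in single cells with high counts. Cells with at least 5 A1 UMIs numbered 2 in each WT pool and 52 and 64 in the IkBKO pools, and they held 73.3% and 63.0% of the A1 UMIs of the IkBKO pools. All but 1 of these IkBKO cells were in the Cd74 gate. The highest count in 1 cell was 17 and 16 UMIs in WT and 69 and 30 UMIs in IkBKO pools. The WT values of the gate rest on few cells: the 13 and 14 Bcl2a1b UMIs came from 3 cells in each pool.

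The A1 genes also differed in their share of the summed A1 UMIs. In the Cd74 gate Bcl2a1b made up 38.2% and 35.0% of A1 UMIs in WT and 59.6% and 63.7% in IkBKO cells, whereas Bcl2a1d made up 52.9% and 42.5% in WT and 33.0% and 28.2% in IkBKO cells. Outside the gate Bcl2a1b made up 80.6% and 75.6% in WT and 67.7% and 64.5% in IkBKO cells. The shares shifted in opposite directions inside and outside the gate, in both replicates. They were not tested, because UMIs of 1 cell are not independent and reads can fit more than 1 of these genes.

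Other genes of the Cd74-gated cells moved with the genotype too. All 10 antigen presenting or dendritic markers were detected in every pool of the gate, and their summed level was 17213 and 12764 CPM in the WT pools against 26575 and 27228 CPM in IkBKO cells. That sum holds Cd74 itself, by which the gate was drawn; the other 9 markers summed to 10431 and 7850 CPM in WT cells, while IkBKO cells had 15554 and 15796 CPM. Of these 9, 6 were higher in IkBKO cells of both libraries and 3 lower, namely Irf8, Batf3 and Ccr7. Irf8, a transcription factor of dendritic and monocyte progenitors, stood at 935 and 778 CPM in WT and at 625 and 733 CPM in IkBKO cells. Il4i1, an amino acid oxidase of activated dendritic cells, stood at 10.2 and 8.35 CPM in WT and at 167.8 and 198.4 CPM in IkBKO cells. Siglech, a plasmacytoid dendritic marker, stood at 40.7 and 1.67 CPM in WT and at 82.2 and 215.7 CPM in IkBKO cells. The summed level of 6 stem cell markers was 312 and 517 CPM in the WT pools against 92.7 and 150.0 CPM in IkBKO cells, and that of 6 mature neutrophil markers 1576 and 8194 CPM in the WT pools against 59.0 and 2038 CPM in IkBKO cells, with Ltf and Retnlg at 0 in both WT pools. The summed level of 6 B cell markers was also lower, at 273 and 387 CPM in WT and at 134 and 187 CPM in IkBKO cells, and Ms4a1 (CD20) was seen in 11.8% and 29.3% of WT and 6.47% and 6.37% of IkBKO cells. With cells holding at least 10 UMIs of mature neutrophil, B cell, T or NK cell, mast or basophil or red cell markers left out, Bcl2a1b (2.77 ± 0.26, edgeR adjusted p = 2.2e-09) and Bcl2a1d (1.52 ± 0.28, edgeR adjusted p = 3.6e-04) were still called. The part of the dendritic and stem cell markers in the result was not tested.

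The gate was also split by single transcripts, and other markers were not matched between the genotypes within a split. IkBKO cells with an Il4i1 UMI (77 and 178 cells) held the A1 genes at 871 and 379 CPM, and those without (124 and 183 cells) at 215 and 191 CPM. WT cells without an Il4i1 UMI (47 and 39 cells) held them at 59.8 and 42.4 CPM, below both IkBKO pools of the same kind. Only 4 and 2 WT cells had an Il4i1 UMI, at 36.4 and 485 CPM, too few for a comparison. IkBKO cells without an Irf8 UMI held the A1 genes at 685 and 421 CPM, against 183 and 209 CPM in those with one. In WT the order differed between the replicates: the 8 and 9 cells without an Irf8 UMI were at 234 and 0 CPM, and the 43 and 32 cells with one at 32.8 and 85.3 CPM. The WT value of 234 CPM lay above both values of IkBKO cells with an Irf8 UMI, but its 17 A1 UMIs all came from 1 cell. These splits are descriptions with no test.

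**Figure D2:**
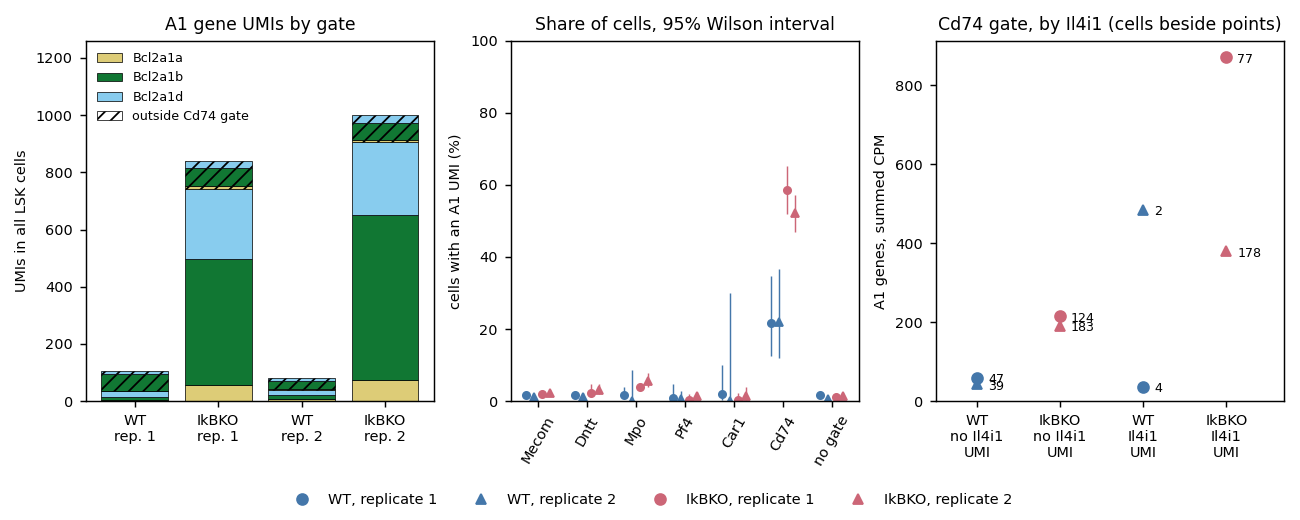
Left, UMIs of the 3 A1 genes in each pool of LSK cells, stacked by gene, with hatching for cells outside the Cd74 gate. Middle, share of cells with at least 1 A1 UMI by gate with 95% Wilson intervals (counting error only); right, summed A1 level in Cd74-gate cells with and without an Il4i1 UMI, with the number of cells beside each point. The Cd74 gate stands apart in the middle panel, at 58.7% and 52.1% of IkBKO and 21.6% and 22.0% of WT cells.

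Mcl1 was high in the Cd74 gate in both genotypes and did not follow the A1 genes. It stood at 250.8 and 253.7 CPM in WT and at 219.6 and 248.9 CPM in IkBKO cells of the gate (−0.09 ± 0.17, edgeR adjusted p = 0.85). Bcl2l11 stood at 13.6 and 18.4 CPM in WT and at 25.9 and 25.7 CPM in IkBKO cells, which lay above both WT pools on 8 to 82 UMIs a pool (0.71 ± 0.34, edgeR adjusted p = 0.32). Bcl2 stood at 49.1 and 38.4 CPM in WT and at 34.2 and 30.1 CPM in IkBKO cells and was not called (−0.42 ± 0.26, edgeR adjusted p = 0.46). Bax, Bak1 and Bid had differences between −0.20 and 0.10 in this gate.

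In the Mecom gate, which is marked by a stem cell gene, the fit called Bcl2a1b (1.71 ± 0.35, edgeR adjusted p = 0.010) and Bcl2a1d (1.79 ± 0.49, edgeR adjusted p = 0.041), 2 of 9 members tested against 6.20% of the 12975 genes tested called higher. These calls rested on a few cells that were in the Cd74 gate as well. Bcl2a1b stood at 1.18 and 0.999 CPM in WT and at 2.52 and 4.31 CPM in IkBKO cells of the Mecom gate, or 15, 16, 24 and 83 UMIs. Of the 24 and 83 IkBKO UMIs, 15 and 68 came from 13 and 23 cells also in the Cd74 gate, leaving 9 and 15 UMIs among the other 725 and 1691 cells. Bcl2a1d was sparser. Cells also in the Cd74 gate held 3 and 2 of its UMIs in WT and 6 and 25 in IkBKO. The other cells of the Mecom gate held 2 and 4 in WT and 3 and 6 in IkBKO. Its WT pools were below the expression filter, so it entered the test through its IkBKO pools and its call carries little weight. Without the Cd74-gated cells Bcl2a1b was at 1.11 and 0.764 CPM in WT and at 0.967 and 0.795 CPM in IkBKO cells (−0.02 ± 0.47, edgeR adjusted p = 0.99), and Bcl2a1d had too few UMIs to be tested.

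The difference of the genotype effect between gates was tested in 1 fit of cells found in exactly 1 gate. Gate pools of the same library and genotype were taken as independent, so what they share is not in its p-values. The Bcl2a1b effect was 2.86 ± 0.66 larger in the Cd74 than in the Mecom gate (edgeR adjusted p = 0.018). Its WT side is small. Cells in the Cd74 gate alone made up 1.13% and 0.463% of WT cells, against 1.37% and 0.826% for the whole gate. Even in the whole gate the WT Bcl2a1b UMIs came from 3 cells in each pool. This was the only one of the 10 members called for this pair of gates, against 0.897% of the 12598 genes tested called higher and 0.635% lower. None of the members was called for the Dntt, Mpo or Pf4 gate against the Mecom gate, where 0.0953%, 0.0476% and 0% of genes were called in either direction and 0 members had an unadjusted p under 0.05. DESeq2 was not run for these differences.

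Bak1 was the other member with a call inside a gate. In the Dntt gate it stood at 28.3 and 24.4 CPM in WT and at 32.7 and 31.9 CPM in IkBKO cells, without overlap (0.38 ± 0.13, edgeR adjusted p = 0.041), 1 of 8 members tested against 6.81% of the 11851 genes tested called higher. The call was lost with DESeq2 at nearly the same value (0.38, DESeq2 adjusted p = 1.00) and in 5 other settings. In the Mecom gate Bak1 stood at 31.0 and 26.4 CPM in WT and at 39.5 and 30.5 CPM in IkBKO cells (0.32 ± 0.10, edgeR adjusted p = 0.068). It was called there with RLE scaling (0.32, edgeR adjusted p = 0.030), without cells carrying markers of other cell types (0.32, edgeR adjusted p = 0.024) and without Cd74-gated cells (0.34, edgeR adjusted p = 0.023). In the Mpo gate (0.21 ± 0.18) and the Pf4 gate (0.20 ± 0.18) it was not called.

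No member was called in the Mpo or Pf4 gate. In the Mpo gate 0 of 8 members tested passed in edgeR, against 0.302% of the 11607 genes tested; 1 member had an unadjusted p under 0.05 and DESeq2 called 0. That member was Bcl2, at 76.5 and 103.6 CPM in WT and at 55.9 and 80.8 CPM in IkBKO cells (−0.39 ± 0.14, edgeR adjusted p = 0.94), and the WT pool of replicate 2 held only 40 cells. It was called without cells carrying markers of other cell types (−0.57, edgeR adjusted p = 0.017), and its sign turned when the gate was drawn on thinned cells (0.030, edgeR adjusted p = 0.999). In the Pf4 gate 0 of 7 members tested passed in edgeR, against 1.46% of the 10415 genes tested, 0 had an unadjusted p under 0.05 and DESeq2 called 0. The Car1 gate held only 9 WT cells in replicate 2 and was not fitted.

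The levels themselves differed between the gates, and different pro-survival genes were highest in different gates. Bcl2 was highest in the Dntt gate, at 134.4 and 113.2 CPM in WT, and at 108.6 and 121.6 CPM in IkBKO cells, compared with 69.0 and 57.7 CPM in the WT pools and with 52.2 and 56.9 CPM in IkBKO cells of the Mecom gate. The level was 1.40 ± 0.09 higher on the log2 scale than in the Mecom gate, averaged over genotypes (edgeR adjusted p = 3.9e-13). Bcl2l11 was also higher there (0.71 ± 0.13, edgeR adjusted p = 9.1e-05), at 17.4 and 20.9 CPM in WT, and at 19.3 and 13.7 CPM in IkBKO cells. Of the 10 members 4 were higher in the Dntt gate and 0 lower, against 14.6% and 17.2% of the 12598 genes tested; with library totals in place of TMM scaling, Bax (0.33 to 0.20) and Bcl2a1b (1.05 to 0.92) were no longer called. Bcl2 was low in the Car1 gate, at 11.3 and 5.12 CPM in WT, and at 22.6 and 20.2 CPM in IkBKO cells, the lowest values of the gene in any gate. The 5.12 CPM comes from 9 cells and lies below 15.3 CPM, the level of 3 UMIs in that pool. Levels in the Car1 gate were not tested.

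The effector genes and Bid were high in the Mpo gate. Relative to the Mecom gate, Bid was 1.12 ± 0.16 higher (edgeR adjusted p = 6.3e-06), Bak1 0.97 ± 0.10 (edgeR adjusted p = 1.6e-09) and Bax 0.93 ± 0.09 (edgeR adjusted p = 4.5e-10). In CPM, Bid stood at 35.3 and 41.7 in WT and at 46.5 and 27.4 in IkBKO cells of the Mpo gate, against 22.3, 21.3, 22.2 and 17.2 in the Mecom gate. Bcl2 was higher as well (0.75 ± 0.10) and Mcl1 lower (−0.32 ± 0.09, edgeR adjusted p = 0.0042). Of the members 4 were higher and 1 lower, against 26.5% and 31.6% of genes. With library totals the same 5 members kept their direction and their calls, with smaller rises (0.89 for Bid) and a larger difference for Mcl1 (−0.56); Bcl2l1 (−0.61) and Bcl2l11 (−0.46) were then called lower too.

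Bcl2l1 was highest in the Pf4 gate, which is marked by a platelet chemokine. It stood at 18.2 and 18.0 CPM in WT and at 18.5 and 15.9 CPM in IkBKO cells, against 9.10, 10.5, 8.19 and 10.7 CPM in the Mecom gate (1.08 ± 0.21, edgeR adjusted p = 2.6e-04). The Pf4 pools did not overlap with those of any other gate. Bcl2 (0.51 ± 0.11) and Bax (0.51 ± 0.10) were also called higher, and Mcl1 (−0.26 ± 0.10, edgeR adjusted p = 0.047; 0.071 with RLE scaling) and Bcl2a1b lower, against 11% and 15.2% of genes called higher and lower. For Bcl2a1b the Pf4 pools held 1, 1, 2 and 27 UMIs before cells in other gates were removed, so no size is given.

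In the Cd74 gate Mcl1 was 1.39 ± 0.10 higher than in the Mecom gate (edgeR adjusted p = 6.9e-13), with the 4 pools between 219.6 and 253.7 CPM against 99.5 to 126.6 CPM. Its Cd74-gate pools lay above those of every other gate. Bcl2a1b (6.84 ± 0.41), Bcl2a1d and Bcl2a1a were higher too, as were Bax (0.98 ± 0.11) and Bak1 (0.68 ± 0.18), and Bcl2 was lower (−0.62 ± 0.17, edgeR adjusted p = 0.0056). Mecom-gate cells outside the Cd74 gate held only 2 and 4 Bcl2a1d UMIs in WT and 3 and 6 in IkBKO, and even fewer of Bcl2a1a. No size is therefore given for these genes. Of the members 6 were higher and 1 lower, against 16.7% and 20.1% of genes. Outside the Cd74 gate, the A1 genes stood at 0 to 2.15 CPM in cells of the other fitted gates. They thus entered this test mainly through the Cd74 pools, where they are high, and their 3 calls carry little weight in this count. The median of all genes was −0.14 in this contrast, and −0.33 with library totals, where all 7 calls held their direction and Bcl2l1 was called lower as well (−1.08, edgeR adjusted p = 0.039). With the library as 1 term Bcl2l11 was also called higher (0.80, edgeR adjusted p = 0.040).

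**Figure D3:**
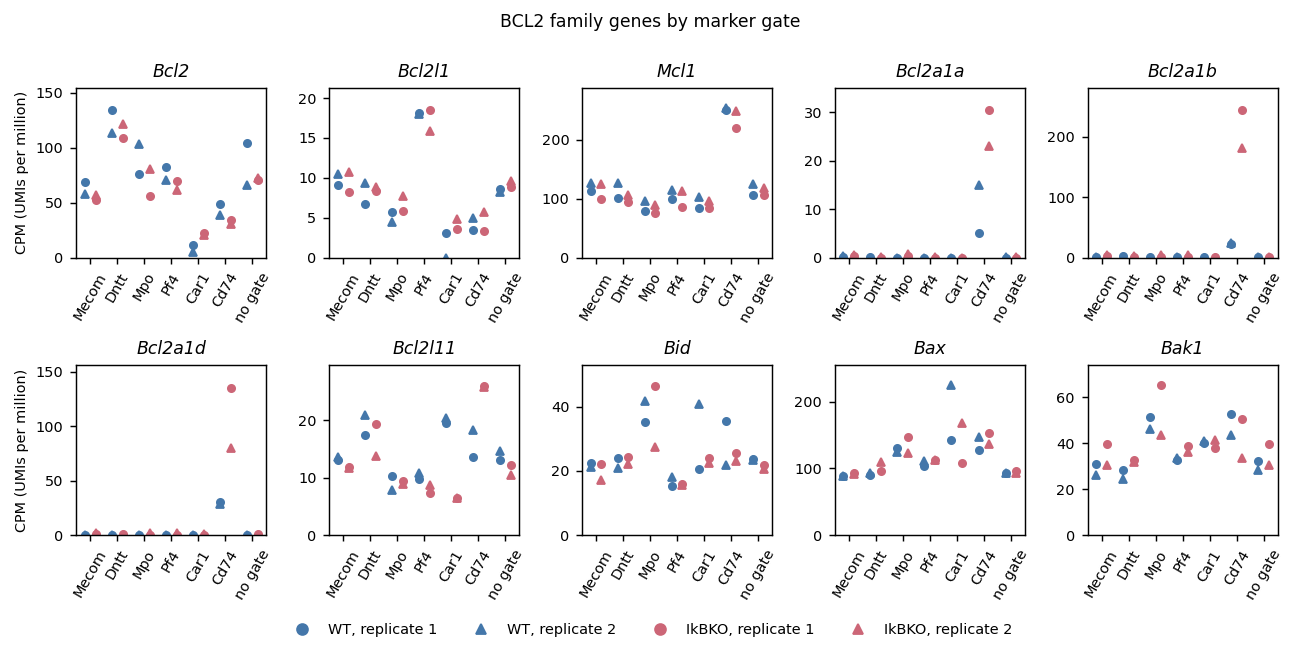
Level of each gene (CPM, linear axis from 0) in the cells of each gate and in cells of no gate, with 1 point per pool (circles replicate 1, triangles replicate 2; WT left in blue, IkBKO right in red). Bcl2 is highest in the Dntt gate, Bcl2l1 in the Pf4 gate, Mcl1 and the A1 genes in the Cd74 gate and Bak1 reaches its highest value, 65.3 CPM, in the Mpo gate; the WT Car1 point of replicate 2 is 9 cells.

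Because gate sizes differed between genotypes, the comparison over all LSK cells was repeated with the 4 pools re-weighted to the same share of cells in each gate class. In WT replicate 2 this raised cells of the Mpo gate alone from 0.564% to 12.3% and of the Cd74 gate alone from 0.463% to 2.97%. The few cells there were thus counted many times, and the fit took the weighted sums as plain counts. The SEs and adjusted p-values of re-weighted pools, here and below, do not account for this. Bcl2a1b remained called at a lower value (1.83 ± 0.19, edgeR adjusted p = 0.0028), the only one of the 10 members, while 253 genes were called higher and 247 lower. Bak1 was at 0.23 ± 0.08 (edgeR adjusted p = 0.20) and Bax at 0.03 ± 0.07, down from 0.54 and 0.35. Bcl2a1d was at 0.98 ± 0.35 (edgeR adjusted p = 0.22) and Bcl2a1a at 0.87 ± 0.52 (edgeR adjusted p = 0.47). Bid changed sign, from 0.27 to −0.22. The plot of differences under 3 ways of pooling shows these values side by side.

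**Figure D4:**
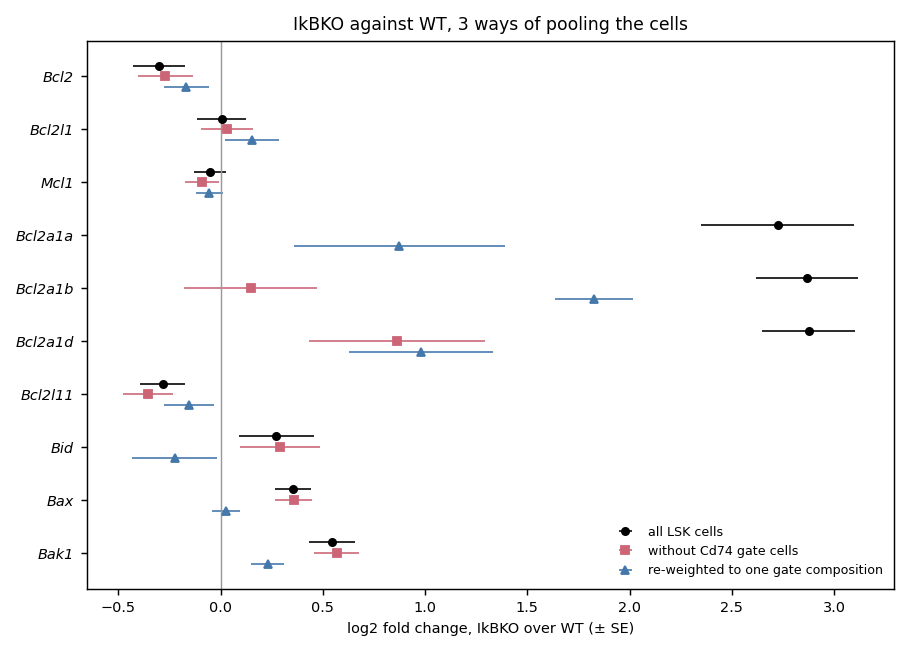
Log2 difference of IkBKO over WT with its SE for each gene, over all LSK cells (black), without cells of the Cd74 gate (red) and with pools re-weighted to one gate composition (blue). Bcl2a1b goes from 2.87 to 0.15 without the Cd74 gate and to 1.83 after re-weighting; Bak1 goes from 0.54 to 0.57 and 0.23. Bcl2a1a was not tested without the Cd74 gate. The SEs of the re-weighted pools do not account for cells counted many times.

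Genes of the apoptosis pathway were compared over all LSK cells in 6 lists, 1 of which holds the member Bid. Of 16 other BCL2 family genes, 12 were tested, 1 was higher and 2 were lower (7.13% and 6.19% of all genes). Pmaip1 (NOXA), a BH3-only gene whose protein binds MCL1 and A1, rose from 1.14 and 0.285 CPM to 3.66 and 3.35 CPM (2.53 ± 0.46, edgeR adjusted p = 0.033). It stayed called without the Cd74 gate (2.28, edgeR adjusted p = 0.0080) and missed the threshold after re-weighting (1.53, edgeR adjusted p = 0.052). Bcl2l12 fell from 43.5 and 45.9 CPM to 25.8 and 26.0 CPM (−0.69 ± 0.08, edgeR adjusted p = 0.0081) and was called in the re-weighted pools too (−0.80, edgeR adjusted p = 0.0022). Bok, a BAX-like effector, fell from 5.27 and 5.60 CPM to 2.20 and 3.31 CPM (−0.91 ± 0.19, edgeR adjusted p = 0.034), a call lost after re-weighting (−0.40, edgeR adjusted p = 0.40). Bmf, a BH3-only gene, was called lower only in the pools without the Cd74 gate (−1.33, edgeR adjusted p = 0.037), out of these 3 ways of pooling.

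The counts in the following lists stand against the same 7.13% of all genes called higher and 6.19% called lower. Of 13 caspase and apoptosome genes, all tested, 4 rose and 0 fell, with a median of 0.06. Those called were Aifm1 (0.51 ± 0.08), the protease gene Htra2 (0.45 ± 0.08), the caspase-9 platform gene Apaf1 (0.46 ± 0.09) and the cytochrome c gene Cycs (0.43 ± 0.09), and none was called after re-weighting. Of 7 inhibitor of apoptosis genes 2 rose, Birc5 (0.65 ± 0.08), which is also a mitosis gene, and Naip2 (0.92 ± 0.15), and both calls were lost after re-weighting. Birc3, in the same list, missed the threshold (0.37, edgeR adjusted p = 0.051) and passed it after re-weighting (0.49, edgeR adjusted p = 0.0488). Of 12 tested death receptor genes, Bid among them, 2 rose: Fas (1.51 ± 0.25, edgeR adjusted p = 0.020), which also passed after re-weighting (1.42, edgeR adjusted p = 0.0497), and Mlkl (0.44 ± 0.10), which did not.

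Of 7 tested p53 pathway genes and 6 tested genes of MCL1 turnover, 0 were called in edgeR over all LSK cells, and 0 in the re-weighted pools; 1 and 2 of them had an unadjusted p under 0.05 over all LSK cells, and DESeq2 called 0. Without the Cd74 gate Trib1, of the second list, was called lower (−1.22, edgeR adjusted p = 0.038). Its place in that list was a choice made here, and a part of Trib1 in MCL1 turnover was not tested. Cdkn1a, a p53 target, stood at 18.8 and 10.4 CPM in WT and at 19.0 and 25.3 CPM in IkBKO pools (0.72 ± 0.35, edgeR adjusted p = 0.27), so a difference was seen in replicate 2 alone. The ubiquitin ligase gene Huwe1 and the deubiquitinase gene Usp9x, which act on MCL1 protein, were at 0.02 ± 0.08 and −0.06 ± 0.07. Protein levels, on which MCL1 control largely rests, were not measured for any member.

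The genes most like each member across 23 pools of the 6 gates (Pearson correlation of log2(CPM + 1), as a description, since the pools share libraries and cells) differed between members. For Bcl2 it was Cd93 (0.93), for Bcl2l1 Rabgap1l (0.90), for Mcl1 Mob1a (0.96) and for Bcl2l11 Lfng (0.88). For Bcl2a1b the most alike was Bcl2a1d (0.97), whose 3′ end is much alike, followed by Il4i1 (0.95) and Zmiz2 (0.95), and for Bcl2a1d it was Slamf7 (0.97). Bak1 was most like Cycs (0.89), Bax like Rexo2 (0.86) and Bid like Ltb4r1 (0.91). Bcl2a1a was below the level set for this comparison.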

How the data were processed

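The matrices deposited by the authors hold raw UMI counts per gene and barcode, not normalized. Per the file headers they were written by Cell Ranger 6.0.0; the submitters' processing notes name Cell Ranger 7.0, Seurat 4.3.0 and build mm10. Genotypes and quality calls per barcode come from a second deposited table; 7683 of 9322 barcodes (82.4%) passed in replicate 1 and 10346 of 24787 (41.7%) in replicate 2. These 18029 cells were used with no further filter and no doublet caller; antibody counts were not used. Gene positions come from GENCODE, which held 99.6% of the gene identifiers.

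Counts were summed per library and genotype and tested in R 4.3.3 with edgeR 4.0.16 (quasi-likelihood, robust, TMM, filterByExpr, two-sided, Benjamini-Hochberg over all genes tested), with the replicate as a block because both genotypes shared 1 library; deviations of same-numbered pools from their genotype means correlated at 0.686 over 14742 genes. Each p-value from all LSK cells or from 1 gate reflects no more than the variation among 4 pools, which may be technical. The joint fit across gates took the gate pools of 1 library and genotype as independent of each other. Its p-values, for levels and for differences between gates, do not account for what such pools share. Gates without 10 cells in each pool were not fitted, which left out Car1, so the joint fit held 5 gates and 20 pools instead of 6 and 24. The scripts were tested on simulated data. DESeq2 1.42.0 and other scalings, filters, gates and pools were the alternatives. All members were named; of each pathway list, up to 4 called genes with the smallest p were named, and other genes were named after their values were seen. The members, lists and gates were chosen with earlier results of these data known.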

Additional observations from a re-analysis of the deposited data

Results flagged for a closer look

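The effect of genotype on Bcl2a1b was 2.86 ± 0.66 log2 units larger in the Cd74 gate than in the Mecom gate (edgeR adjusted p = 0.018), the only tested difference between gates called for any of the 10 members. It kept its call with RLE scaling (2.80), library totals (2.80) and the library as 1 term (2.81). The WT pools of the Cd74 gate held 13 and 14 Bcl2a1b UMIs, of which 1 and 4 lay in cells also in the Mecom gate and did not enter this fit.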

How the results depend on the processing

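Over all LSK cells, 4 members were called; 5 were called with DESeq2, RLE scaling, no filter and without other cell types, 2 without the Cd74 gate, 1 after re-weighting and 0 with no replicate block. The 1964 genes called became 1564 with DESeq2, 3181 with no filter, 500 after re-weighting (398 shared with the main calls) and 0 with no replicate block. In the Mecom gate the 2 calls became 0 under DESeq2, thinned cells, the joint fit and no replicate block, and 1 under doubled thresholds and without Cd74-gated cells, where the 1 call was Bak1, and 3 with RLE scaling and without other cell types. In the Dntt gate the 1 call became 0 under DESeq2, RLE scaling, doubled thresholds, thinned cells, the joint fit and no replicate block. In the Mpo gate 0 became 1 without other cell types. The 4 members higher in the Dntt than in the Mecom gate became 2 with library totals. The 2 calls in the Cd74 gate held in every alternative tested there. Counts of calls were within 1.5 times in 57 comparisons and beyond in 20; of the member values 640 kept direction and call, 42 changed sign, 25 lost and 13 gained a call and 3 single-library values lay further off. The causes were not tested. Both replicates alone gave log2 differences of 2.44 and 3.34 for Bcl2a1b over all LSK cells.

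In 1 library alone, 18 of 51 member values over all LSK cells and in the gates had another sign than both together, 0 of them called; Bcl2a1b in the Dntt gate ranged from −1.35 to 1.38. With both libraries the sign changes were as follows, all but that of Bcl2a1b in the Mecom gate in values not called. In the Cd74 gate, Mcl1 (0.047) and Bax (−0.0035) changed with thinned cells and Bak1 (0.12) in the joint fit. In the Dntt gate, Bcl2 (0.10) changed without other cell types, Bcl2l1 (−0.057 and −0.055) with doubled thresholds and thinned cells, and Bcl2a1b (−0.12 and −0.035) in the joint fit and without Cd74-gated cells. In the Mecom gate, Bcl2l1 (0.073, 0.0065 and 0.034) changed with doubled thresholds, thinned cells and without other cell types, Mcl1 (0.017) in the joint fit, Bcl2a1b (−0.022) without Cd74-gated cells, and Bax (−0.0094 and −0.16) with doubled thresholds and in the joint fit. In the Mpo gate, thinned cells changed Bcl2 (0.030), Bcl2l1 (−0.030), Mcl1 (0.11) and Bcl2l11 (0.11); the joint fit changed Mcl1 (0.029) and Bcl2l11 (0.062); DESeq2 changed Bcl2l11 (0.010) and Bid (−0.029); doubled thresholds changed Bcl2l11 (0.17) and Bid (−0.028). In the Pf4 gate, Mcl1 (0.022 and 0.046) changed with thinned cells and in the joint fit, Bax (−0.0062) with doubled thresholds, and Bid (0.59 and 0.50) with doubled thresholds and thinned cells. Bid over all LSK cells changed after re-weighting (−0.22). Of the effects relative to the Mecom gate, Bcl2 (−0.027 and −0.015) and Mcl1 (−0.065 and −0.051) in the Mpo gate and Mcl1 (−0.020 and −0.021) in the Pf4 gate changed with RLE scaling and library totals, and Mcl1 (−0.0025) and Bcl2a1d (0.025) in the Mpo gate with the library as 1 term. Of the levels, Bak1 in the Dntt gate (−0.017) changed with library totals, and Bcl2a1b in the Mpo gate (−0.12 and −0.13) with the library as 1 term and library totals.

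The A1 genes are limited by depth outside the Cd74 gate, at 41 to 96 summed UMIs a pool. Leaving out 1 replicate left 2 pools and no test. The alternatives without Cd74-gated or other-type cells within gates, and those on the scaling of the joint fit, were chosen after seeing the data.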
